A study of Xenopus laevis with 14 samples.

Results

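Neurotransmitter transporters of solute carrier families 1, 6, 17 and 18 were followed in Xenopus laevis ectoderm. Members were the genes of the deposited expression table whose symbol, ignoring case, began with slc1a, slc6a, slc17a or slc18a and a number. The rule gave 31 of 19921 genes, with 7 of family 1, 17 of family 6, 4 of family 17 and 3 of family 18, and left out 1 further glycine transporter gene. Of these, 24 reached a mean of 10 normalized reads over all libraries and were tested, and 6 of the other 7 are given by their values. Levels are given as normalized reads, which are reads scaled by a single factor in each library.

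Animal caps, the ectoderm of the animal pole, were cut at about stage 10 from embryos injected with mRNA at the 2-cell stage, and poly-A RNA was sequenced in 10 libraries, 2 per group. The study profiled what prdm12, a zinc finger protein of the developing nervous system, does in caps turned towards posterior neural tissue. The prdm12_VP16 group received prdm12_VP16 mRNA and the prdm12_engR group prdm12_engR mRNA. These names usually stand for fusions to the VP16 activation domain and to the Engrailed repressor domain. The prdm12 group received prdm12 mRNA. These 3 groups and the noggin group all received mRNA of noggin, which blocks BMP signals, and retinoic acid (RA), so the noggin and RA caps were the common control of the constructs. Wild-type caps had no treatment. Injected mRNA reaches the cap without cell type control, and neither the number of caps nor of embryos in a library is given. Of the 14 samples, 4 were ChIP or input libraries that are not analysed here.

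Neurons load transmitters into synaptic vesicles through SLC17 carriers for glutamate and SLC18 carriers for monoamines and acetylcholine. Both draw on the electrochemical proton gradient of the vesicle. SLC1 carriers in neurons and glia take glutamate back up from the extracellular space, and SLC6 carriers do the same for monoamines, GABA and glycine with sodium and chloride. Both SLC1 and SLC6 also hold carriers that move amino acids or creatine for metabolism rather than for signalling. Untreated caps form epidermis, which includes ionocytes, multiciliated cells and small secretory cells that hold serotonin.

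Between 11986697 and 15893668 reads lay on genes in each library. Reads not aligned uniquely were 23.8% to 34.2% of the records in the neuralized libraries, against 44.0% and 34.3% in the wild-type libraries. Neuron and epidermal markers went with the labelled tissues. The summed level of 9 neuron markers was 16569 to 154550 normalized reads in the 8 neuralized libraries, against 1079 to 1249 in wild-type caps, and that of 6 epidermal markers was 421 to 2465, against 485848 to 491247. The 4 markers of multiciliated cells, an epidermal cell type, summed to 7577 to 7644 in prdm12_VP16 caps, 1381 to 1421 in prdm12_engR caps, 1813 to 2163 in prdm12 caps, 4751 to 5894 in noggin and RA caps and 7494 to 11167 in wild-type caps. These sums came mostly from foxj1, tekt2 and efhc2. The fourth marker, myb, had 621 and 418 normalized reads in wild-type caps and 2.95 to 17.5 in the neuralized libraries. The 2 muscle markers summed to 374 to 3089 in the neuralized libraries, against 79.4 to 150 in wild-type caps, and the part of such cells in the results was not tested. Of the glial markers, AQP4 was at 0 in prdm12_engR caps and olig2 in wild-type caps. For replicate 1 of prdm12_engR the title gives engR but the treatment gives VP16. The summed level of 4 inhibitory interneuron markers was 9634 to 9695 in its group, 8991 to 10909 in prdm12 caps and 33.4 to 108 in prdm12_VP16 caps, so that library lay with its title. Nothing in the labels ties replicates to separate clutches or cultures. The p-values therefore reflect the spread between the 2 libraries of a group, pooled over all 5 groups and moderated across genes by limma. That spread may be technical.

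Vesicular and uptake carriers for glutamate, the acetylcholine carrier, and carriers of GABA, glycine and creatine were higher in noggin and RA caps than in wild-type caps, and the vesicular monoamine carrier was lower. In this comparison 19 of the 24 tested members passed limma's test at an adjusted p of 0.05, 14 of them higher and 5 lower. Over all 12937 genes tested 43.7% passed, 22.3% higher and 21.4% lower. The median log2 fold change of the members was 3.68, against 0.0169 for all genes tested. Setting the 1 member that had no wild-type reads at its lower bound could not move this median, as the bound also lay above it. Over all 31 members, with no filter on low values, the median was 0.51, against 0 for all genes. Values of the noggin and RA libraries lay wholly above the wild-type values for 14 members, against 36.4% of all genes, and wholly below for 8, against 35.3%. Without any 1 library 16 of the 19 calls held. The call of slc6a14.2 was lost without wild-type replicate 1 (adjusted p of 0.0552). That of slc6a9 was lost without wild-type replicate 1 (0.0668) or noggin replicate 2 (0.0776), and that of SLC6A4 without noggin replicate 1 (0.181), noggin replicate 2 (0.0538) or wild-type replicate 2 (0.210). In bulk caps, fewer cells of a type and less RNA per cell cannot be told apart.

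**Figure D1:**
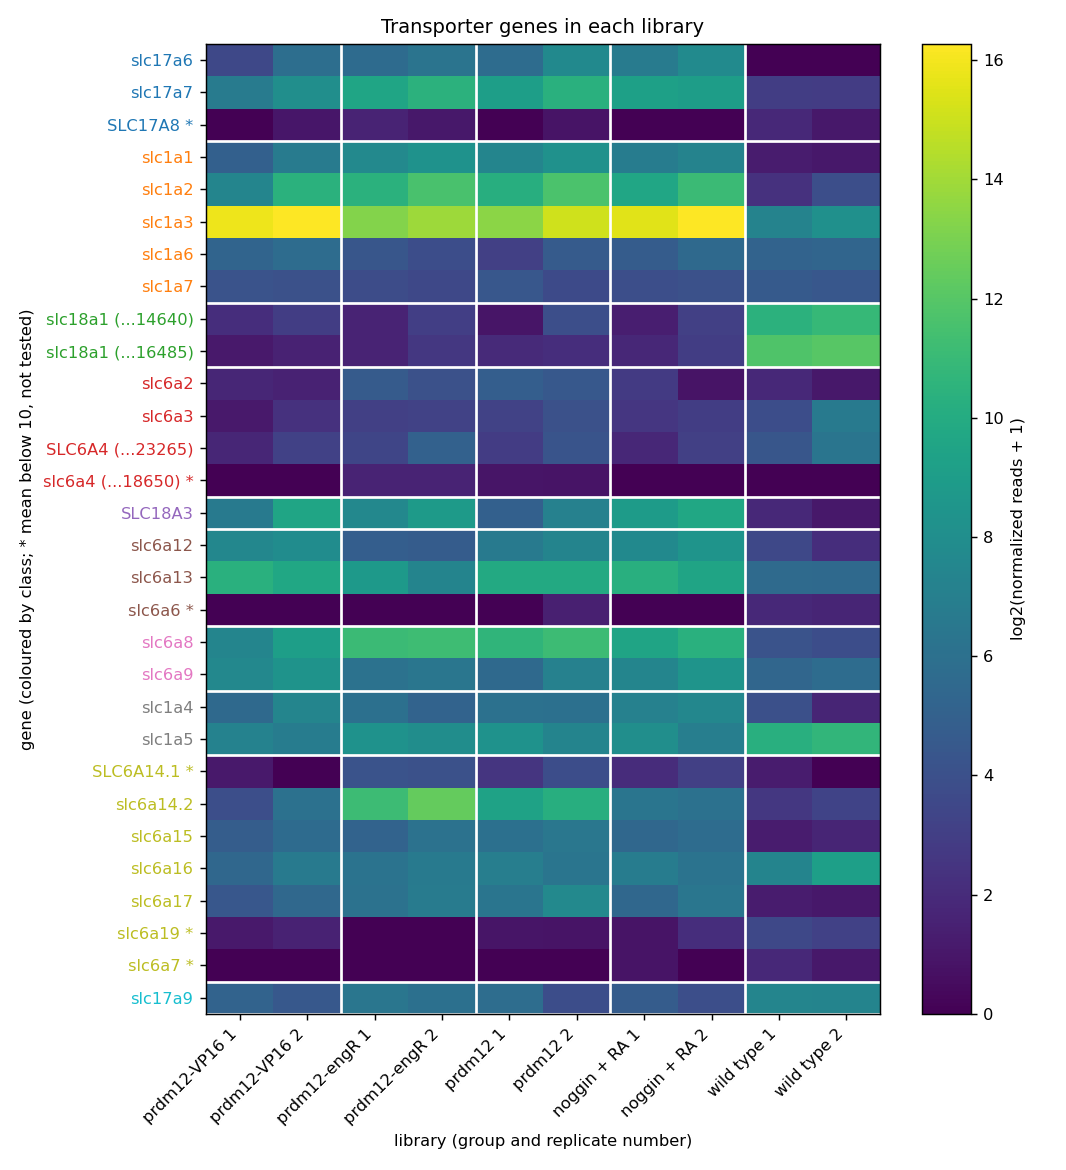
Heat map of log2(normalized reads + 1) of 30 of the 31 members (rows, by class) in the 10 libraries (columns, by group), with a star at members whose mean was below 10. The vesicular monoamine rows are high only in the wild-type columns among these libraries, and the slc1a3 row is at its lowest there.

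**Figure D2:**
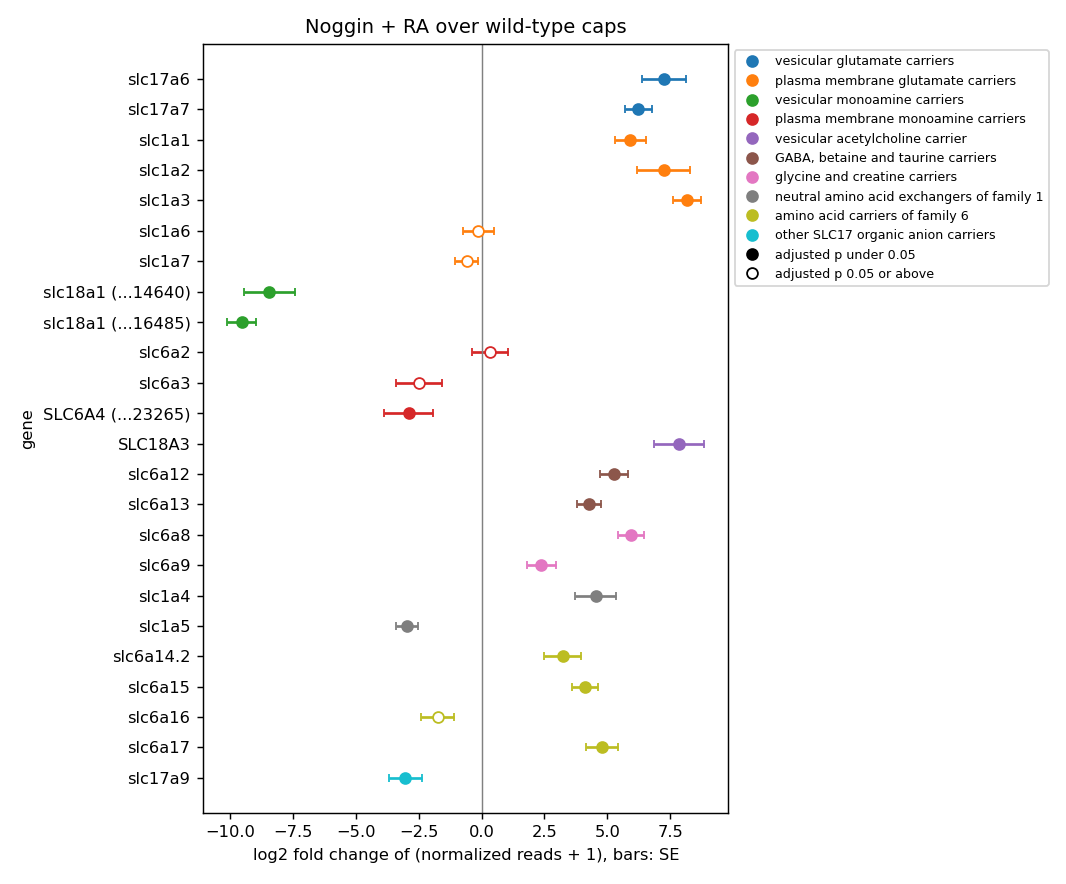
Log2 fold change of the 24 tested members in noggin and RA caps over wild-type caps, with bars of 1 standard error. Filled points passed an adjusted p of 0.05, and these are 14 members to the right and 5 to the left of 0.

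Among the vesicular glutamate carriers, slc17a7 and slc17a6 were both present in neuralized caps and near 0 in wild-type caps. In the brain slc17a7 is the carrier of many cortical neurons and slc17a6 that of many subcortical and spinal neurons. Normalized reads of slc17a7 were 108 and 267 in prdm12_VP16 caps, 749.8 and 1379 in prdm12_engR caps, 559.8 and 1305 in prdm12 caps, 615 and 527 in noggin and RA caps, and 6.62 and 6.57 in wild-type caps. The prdm12_VP16 libraries were the lowest of the neuralized ones for this gene and overlapped no other group. Normalized reads of slc17a6 were 10.4 and 57.9 in prdm12_VP16 caps, 50.05 and 74.2 in prdm12_engR caps, 53.6 and 211 in prdm12 caps, 107 and 216 in noggin and RA caps, and 0 and 0 in wild-type caps. Here the construct groups overlapped each other, and those of prdm12_VP16 and prdm12_engR lay below both noggin and RA libraries. In noggin and RA caps over wild-type caps, slc17a7 rose by 6.23 ± 0.54 on the log2 scale (SE, adjusted p of 5.97e-05 from limma). With 389 reads against 0, slc17a6 was at least 89.3-fold higher in noggin and RA caps, set against a floor of 3 reads over the wild-type group (adjusted p of 0.00032 from limma). SLC17A8, the carrier of some sensory and modulatory neurons, did not exceed 2.65 normalized reads in any library. The family member slc17a9, which loads nucleotides into vesicles, went the other way. It had 34.5 and 21.6 normalized reads in prdm12_VP16 caps, 83.4 and 63.9 in prdm12_engR caps, 54.5 and 13.2 in prdm12 caps, 26.02 and 14.2 in noggin and RA caps, and 167 and 164 in wild-type caps. Both wild-type libraries were above all others, and slc17a9 was lower in noggin and RA caps by a log2 fold change of -3.04 ± 0.65 (SE, adjusted p of 0.0058 from limma).

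Of the 5 plasma membrane glutamate carriers, 3 rose with noggin and RA and the other two did not pass. The largest fold change was that of slc1a3, the uptake carrier of astrocytes and radial glia. It had 58970.4 and 79019 normalized reads in prdm12_VP16 caps, 9870.2 and 15093 in prdm12_engR caps, 11147 and 34636 in prdm12 caps, 47109 and 76699.8 in noggin and RA caps, and 152 and 289 in wild-type caps. Both prdm12_engR and prdm12 caps lay below prdm12_VP16 and noggin and RA caps without overlap, and all neuralized libraries lay above the wild type. The log2 fold change of slc1a3 in noggin and RA caps over wild-type caps was 8.16 ± 0.55 (SE, adjusted p of 1.92e-05 from limma). The summed level of 5 neural progenitor markers had a like order, with 23672 in both prdm12_VP16 libraries, 7094 to 9014 in prdm12_engR caps, 9211 to 11842 in prdm12 caps, 17811 to 17956 in noggin and RA caps and 155 to 258 in wild-type caps. The 5 of 7 listed glial markers found in the table summed to 8425 to 11512, 2392 to 2883, 854 to 2753, 2937 to 5571 and 143 to 196 in the same groups. In the neuralized libraries most of it was fabp7, which radial glia also express, with 791 to 10932 normalized reads there and 18.5 and 18.6 in wild-type caps. Most of the wild-type sum was mbp, which went the other way. It had 123 and 162 in wild-type caps and 13.8 and 72.8 in noggin and RA caps. Of the 3 glial markers tested in that comparison, 2 (fabp7 and olig2) were called higher, and mbp was called lower only with the replicate number as a block. The part of these cells in the slc1a3 result was not tested.

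The glial uptake carrier slc1a2 had 166 and 1316 normalized reads in prdm12_VP16 caps, 1359 and 3046 in prdm12_engR caps, 1194 and 3259 in prdm12 caps, 794 and 2167 in noggin and RA caps, and 3.97 and 14.2 in wild-type caps. Replicate 2 was the higher library of slc1a2 in each group, and replicate 1 of prdm12_VP16 was the lowest neuralized library. Normalized reads of slc1a1, which serves neurons and epithelia, were 31.1 and 109 in prdm12_VP16 caps, 199 and 317 in prdm12_engR caps, 172 and 296 in prdm12 caps, 111 and 157 in noggin and RA caps, and 1.32 and 1.09 in wild-type caps. The prdm12_VP16 libraries were below those of every other neuralized group. Over wild-type caps, slc1a2 rose in noggin and RA caps by 7.24 ± 1.04 on the log2 scale (SE, adjusted p of 0.000732 from limma). For slc1a1 the 324 reads in noggin and RA caps against 2 in wild-type caps gave a ratio of 112, with a counting interval at 95% of 30.6 to 925 (adjusted p of 0.000129 from limma). The other two carriers, slc1a6 of Purkinje cells and slc1a7 of the retina in mammals, ranged over all libraries between 7.39 and 54.0 and between 10.3 and 23.8 normalized reads. Their log2 fold changes in noggin and RA caps over wild-type caps did not pass, at -0.13 (adjusted p of 0.881) and -0.59 (adjusted p of 0.339) in limma.

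The vesicular monoamine carrier slc18a1, which in mammals serves endocrine cells, was at a high level in wild-type caps alone among the 5 groups. It stands on 2 lines of the table, on scaffold GL172670.1 at 465024 to 486777 and at 512819 to 526460. Reads not aligned uniquely were counted apart from the genes, so reads that fit both lines may count for neither. On the line of ENSXETG00000016485, wild-type caps had 3539 and 4148 normalized reads, and the 8 neuralized libraries lay between 1.15 and 6.69. On the line of ENSXETG00000014640, wild-type caps had 1409 and 1898 and the neuralized libraries lay between 0.92 and 14.04. No neuralized library came near a wild-type library on either line. The log2 fold changes in noggin and RA caps over wild-type caps were -9.54 ± 0.58 (SE, adjusted p of 1.17e-05 from limma) and -8.43 ± 1.03 (SE, adjusted p of 0.000311 from limma). Both lines reached the filter of 10 only through their wild-type values, so the filter and these calls drew on the same values. Between constructs both lines were tested near the floor. In the same libraries tph1, a gene of serotonin synthesis, had 10.6 and 7.53 normalized reads in noggin and RA caps and 101 and 133 in wild-type caps. The decarboxylase gene ddc had 4.07 and 2.51 in noggin and RA caps, against 353 and 274 in wild-type caps. Summed levels of 4 ionocyte markers were 28.4 to 32.5 in noggin and RA caps, against 21678 to 36889 in wild-type caps. The 3 listed markers of small secretory cells were tph1, ddc and foxa1. Of these 2 were called lower in noggin and RA caps, tph1 and ddc with the values above, and 1, foxa1, was called higher. Values of foxa1 were 2456 and 1825 in noggin and RA caps, against 539 and 582 in wild-type caps. Which cells of the untreated caps carried slc18a1 was not tested.

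Uptake carriers for monoamines had at most 98.5 normalized reads in any library. The serotonin carrier SLC6A4 (ENSXETG00000023265) had 2.3 and 7.85 normalized reads in prdm12_VP16 caps, 9.39 and 31.9 in prdm12_engR caps, 6.47 and 17.4 in prdm12 caps, 2.44 and 7.53 in noggin and RA caps, and 19.9 and 77.7 in wild-type caps. The replicates of each group were as far apart as several of the groups. SLC6A4 was lower in noggin and RA caps than in wild-type caps by a log2 fold change of -2.90 ± 0.96 (SE, adjusted p of 0.0385 from limma), a call lost without any of the 3 libraries given above. The dopamine carrier slc6a3 had 1.15 and 3.93 in prdm12_VP16 caps, 7.3 and 8.24 in prdm12_engR caps, 8.31 and 15.7 in prdm12 caps, 4.88 and 6.69 in noggin and RA caps, and 13.2 and 98.5 in wild-type caps. Its log2 fold change of -2.48 ± 0.91 in noggin and RA caps over wild-type caps missed the threshold (adjusted p of 0.0564 from limma, and of 0.0153 with the replicate number as a block). The mean of slc6a3 over all libraries, 16.8, came mostly from wild-type caps (mean of 55.9). The filter and this test thus drew on the same wild-type values. The noradrenaline carrier slc6a2 was the 1 monoamine carrier that passed between constructs without the block. That call, lower in prdm12_VP16 than in prdm12_engR caps, held in 5 of 9 other settings. The mean of slc6a2 over all libraries was 10.3, just above the filter of 10. It came mostly from prdm12_engR and prdm12 caps (means of 19.7 and 24.6), so the filter and the call drew on the same prdm12_engR values. Normalized reads of slc6a2 were 2.3 and 1.96 in prdm12_VP16 caps, 23.98 and 15.5 in prdm12_engR caps, 27.7 and 21.5 in prdm12 caps, 5.69 and 0.84 in noggin and RA caps, and 2.65 and 1.09 in wild-type caps. The prdm12_engR and prdm12 libraries lay above all libraries of the other groups. With 8 reads in noggin and RA caps against 3 in wild-type caps, slc6a2 gave a ratio of 1.84, with a counting interval at 95% of 0.441 to 10.7.

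SLC18A3, the vesicular acetylcholine carrier, marks cholinergic neurons such as motor neurons. It had 104 and 768 normalized reads in prdm12_VP16 caps, 196 and 468 in prdm12_engR caps, 31.4 and 139 in prdm12 caps, 491 and 825 in noggin and RA caps, and 2.65 and 1.09 in wild-type caps. The prdm12 libraries lay below both noggin and RA libraries, the prdm12_VP16 libraries were far apart, and replicate 2 was the higher in each neuralized group. The 1590 reads in noggin and RA caps against 3 in wild-type caps gave a ratio of 365, with a counting interval at 95% of 125 to 1771 (adjusted p of 0.000418 from limma). In prdm12 caps over noggin and RA caps the log2 fold change was -3.24 ± 1.01 (SE), which did not pass (adjusted p of 0.488 from limma, and of 0.114 with the block). The genes of acetylcholine synthesis and of choline uptake had these values in the same libraries. For chat, the synthesis enzyme whose gene holds SLC18A3 in vertebrates, they were 4.61 and 43.2 in prdm12_VP16 caps, 7.3 and 31.9 in prdm12_engR caps, 0.92 and 0.83 in prdm12 caps, 34.96 and 44.3 in noggin and RA caps, and 0 and 0 in wild-type caps. For the choline carrier slc5a7, they were 21.9 and 184 in prdm12_VP16 caps, 116 and 228 in prdm12_engR caps, 91.5 and 145 in prdm12 caps, 238 and 434 in noggin and RA caps, and 0 and 1.09 in wild-type caps. For chat, as for SLC18A3, prdm12 caps were the lowest neuralized group. Both genes were called higher in noggin and RA caps than in wild-type caps (adjusted p of 0.0031 for chat and of 0.000268 for slc5a7 from limma). The summed level of 4 motor neuron markers was 277 to 846 in prdm12_VP16 caps, 1377 to 1647 in prdm12_engR caps, 1314 to 1445 in prdm12 caps, 707 to 1140 in noggin and RA caps and 433 to 893 in wild-type caps. Noggin and RA caps overlapped wild-type caps in this sum, but its members differed. Most of the wild-type sum was isl1, with 835 and 393 there and 39.8 and 92.9 in noggin and RA caps. In noggin and RA caps mnx1 (254 and 349, against 3.97 and 1.09) and lhx3 (379 and 646, against 1.32 and 2.19) were above wild-type caps, and isl2 overlapped. In prdm12 caps lhx3 (38.8 and 116) was below noggin and RA caps. There isl1 (492 and 458) and isl2 (592 and 560) were above them, and mnx1 overlapped.

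Carriers of GABA and betaine rose with noggin and RA and were lowest with prdm12_engR among neuralized caps. The betaine and GABA carrier slc6a12 had 185 and 243 normalized reads in prdm12_VP16 caps, 28.2 and 25.8 in prdm12_engR caps, 98.8 and 164 in prdm12 caps, 209.8 and 346 in noggin and RA caps, and 10.6 and 3.28 in wild-type caps. The GABA carrier slc6a13 had 1264 and 835 in prdm12_VP16 caps, 424 and 162 in prdm12_engR caps, 937 and 930.1 in prdm12 caps, 1221 and 717 in noggin and RA caps, and 48.97 and 45.96 in wild-type caps. For both genes the prdm12_engR libraries lay below all other neuralized libraries and above both wild-type libraries. In noggin and RA caps over wild-type caps the log2 fold change was 5.26 ± 0.54 for slc6a12 (SE, adjusted p of 0.000129 from limma) and 4.27 ± 0.47 for slc6a13 (SE, adjusted p of 0.000169 from limma). These genes lay side by side on scaffold GL173512.1, with 17301 bases between them. The taurine carrier slc6a6 reached at most 2.65.

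The glycine and creatine carriers rose with noggin and RA and differed from each other between constructs. The creatine carrier slc6a8 had 170.4 and 553 normalized reads in prdm12_VP16 caps, 2203 and 2399 in prdm12_engR caps, 1597 and 2286 in prdm12 caps, 737 and 1306 in noggin and RA caps, and 17.2 and 13.1 in wild-type caps. Both prdm12_VP16 libraries were below all other neuralized libraries. The glycine carrier slc6a9, a gene of glia and of some glutamate neurons, had 191 and 324 in prdm12_VP16 caps, 68.8 and 83.5 in prdm12_engR caps, 47.1 and 140.4 in prdm12 caps, 172 and 345 in noggin and RA caps, and 39.7 and 53.6 in wild-type caps. Here prdm12_engR and prdm12 caps lay below prdm12_VP16 and noggin and RA caps without overlap, as for slc1a3. In noggin and RA caps over wild-type caps slc6a8 rose by 5.94 ± 0.53 (SE, adjusted p of 6.52e-05 from limma) and slc6a9 by 2.37 ± 0.58 (SE, adjusted p of 0.0106 from limma) on the log2 scale. The slc6a9 call was lost without noggin replicate 2 (0.0776) or wild-type replicate 1 (0.0668).

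The neutral amino acid exchangers of family 1 moved in opposite directions with noggin and RA. The exchanger slc1a4, which carries alanine and serine, had 47.2 and 169.8 normalized reads in prdm12_VP16 caps, 63.6 and 35.03 in prdm12_engR caps, 67.4 and 63.6 in prdm12 caps, 144 and 182 in noggin and RA caps, and 14.6 and 2.19 in wild-type caps. The glutamine exchanger slc1a5 had 146 and 111 in prdm12_VP16 caps, 317 and 256 in prdm12_engR caps, 308 and 164 in prdm12 caps, 259 and 125 in noggin and RA caps, and 1237 and 1646 in wild-type caps. All neuralized libraries were above the wild type for slc1a4 and below it for slc1a5. The log2 fold change in noggin and RA caps over wild-type caps was 4.53 ± 0.83 for slc1a4 (SE, adjusted p of 0.00255 from limma) and -2.98 ± 0.44 for slc1a5 (SE, adjusted p of 0.000796 from limma).

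Among the amino acid carriers of family 6, slc6a14.2 had the largest fold change between constructs of all members tested. In mammals this carrier takes up neutral and cationic amino acids in epithelia. It had 13.8 and 66.8 normalized reads in prdm12_VP16 caps, 2290.0 and 5558 in prdm12_engR caps, 663 and 1192 in prdm12 caps, 79.7 and 66.1 in noggin and RA caps, and 5.29 and 8.75 in wild-type caps. The prdm12_engR libraries were above all others, the prdm12 libraries next, and prdm12_VP16 overlapped noggin and RA caps. SLC6A14.1, whose line lies 6892 bases away on scaffold GL173154.1, had at most 16.7 normalized reads and was not tested. Its values were 1.15 and 0 in prdm12_VP16 caps, 16.7 and 15.5 in prdm12_engR caps, 4.62 and 13.2 in prdm12 caps, 3.25 and 7.53 in noggin and RA caps, and 1.32 and 0 in wild-type caps. The lines are near copies by name, so reads that fit both may count for neither.

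The carriers slc6a17 and slc6a15 move neutral amino acids in brain neurons, slc6a17 in synaptic vesicles. Normalized reads of slc6a17 were 20.7 and 44.2 in prdm12_VP16 caps, 67.8 and 106 in prdm12_engR caps, 78.5 and 203 in prdm12 caps, 43.1 and 82.8 in noggin and RA caps, and 1.32 and 1.09 in wild-type caps. Those of slc6a15 were 26.5 and 50.1 in prdm12_VP16 caps, 35.5 and 70.1 in prdm12_engR caps, 62.8 and 88.4 in prdm12 caps, 41.5 and 51.9 in noggin and RA caps, and 1.32 and 2.19 in wild-type caps. Neuralized groups of both genes lay far above the wild type, with smaller differences among them. In noggin and RA caps against wild-type caps, 152 reads against 2 gave slc6a17 a ratio of 52.3, with a counting interval at 95% of 14.2 to 436 (adjusted p of 0.000432 from limma). For slc6a15, 113 reads against 3 gave 25.9, with an interval of 8.65 to 128 (adjusted p of 0.000388 from limma). The log2 fold change of slc6a14.2 in the same comparison was 3.23 ± 0.73 (SE, adjusted p of 0.00745 from limma, and of 0.0552 without wild-type replicate 1). The orphan carrier slc6a16 had 42.6 to 126 normalized reads in neuralized libraries and 159 and 588 in wild-type caps, with a log2 fold change of -1.75 ± 0.66 in noggin and RA caps over wild-type caps (SE, adjusted p of 0.0633 from limma, and of 0.0395 with the block). The proline carrier slc6a7 and slc6a19, the neutral amino acid carrier of kidney and gut, were not tested, with at most 2.65 and 10.6 normalized reads, and the second slc6a4 line (ENSXETG00000018650) had at most 2.09.

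**Figure D3:**
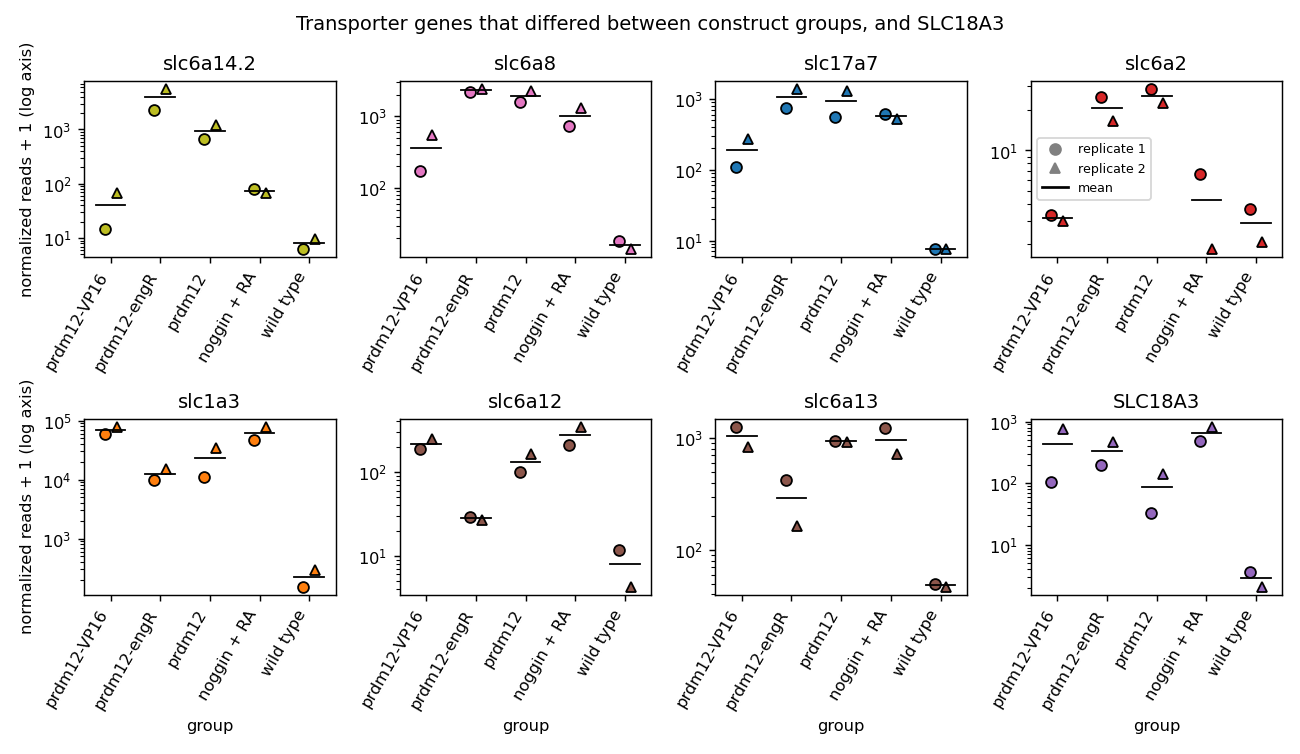
Normalized reads + 1 on a log axis for 8 members, with a circle for replicate 1 and a triangle for replicate 2 in each group and a line at the group mean. slc6a14.2 is highest in prdm12_engR caps, slc6a8 and slc17a7 are lowest among neuralized caps with prdm12_VP16, and slc6a12 and slc6a13 are lowest among them with prdm12_engR.

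Between the constructs, the GABA and betaine carriers and the radial glial glutamate carrier were higher with prdm12_VP16 than with prdm12_engR, and the amino acid carrier slc6a14.2, the creatine carrier slc6a8, the vesicular glutamate carrier slc17a7 and the noradrenaline carrier slc6a2 were lower. The comparisons that follow share libraries with each other, and those over noggin and RA caps share both control libraries. The largest number of calls was in prdm12_VP16 over prdm12_engR caps, where 7 of the 24 tested members passed limma's test, 3 higher and 4 lower, while 12.1% of all genes passed, 3.42% higher and 8.70% lower. Higher with prdm12_VP16 were slc6a12 (log2 fold change of 2.93 ± 0.54, adjusted p of 0.0129), slc1a3 (2.48 ± 0.55, adjusted p of 0.0249) and slc6a13 (1.97 ± 0.47, adjusted p of 0.0314). Lower were slc6a14.2 (-6.82 ± 0.73, adjusted p of 0.00223), slc6a8 (-2.90 ± 0.53, adjusted p of 0.0123), slc6a2 (-2.70 ± 0.72, adjusted p of 0.0461) and slc17a7 (-2.57 ± 0.54, adjusted p of 0.0209). The median log2 fold change was -0.97 for the members and -0.02 for all genes. The members' median was -0.10 with quantile scaling, where that of all genes was 0.20, and -0.32 without prdm12_VP16 replicate 1 and -0.62 without prdm12_engR replicate 2. Libraries did not overlap for 6 members higher and 12 lower, against 26.0% and 29.9% of all genes.

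The slc6a14.2 call in prdm12_VP16 over prdm12_engR caps held without any 1 library, and each of the other 6 was lost without at least 1. That of slc1a3 was lost without any of the 4 libraries compared (log2 fold changes of 2.18 to 2.79). The slc17a7 call was lost without prdm12_VP16 replicate 1 or either prdm12_engR library. For slc6a13 it was lost without prdm12_VP16 replicate 1, prdm12_engR replicate 2 or either wild-type library. That of slc6a2 held without either noggin and RA library and was lost without any of the other 8 (adjusted p of 0.0569 to 0.200). The count was 2 (slc6a14.2 and slc6a13) without prdm12_engR replicate 1, the library with the conflicting treatment label, and 1 without prdm12_engR replicate 2. It was 3 without prdm12_VP16 replicate 1. Calls over all genes fell as well in each fit without 1 library, except without prdm12_VP16 replicate 2. With the replicate number as a block 13 members passed, 4 higher and 9 lower, against 29.1% of all genes (10.6% higher and 18.6% lower). The block added slc6a9 (1.70 ± 0.58, adjusted p of 0.00885) as higher, and slc1a2 (-2.12 ± 1.04, 0.00741), slc1a1 (-2.09 ± 0.61, 0.0108), SLC6A4 (-1.78 ± 0.96, 0.0181), slc6a17 (-1.45 ± 0.62, 0.0359) and slc1a5 (-1.15 ± 0.44, 0.0387) as lower, with the SE of the fit without the block. Quantile scaling gave 4 higher and 3 lower, with slc6a9 gained and slc6a2 lost. In the same libraries the neuron markers summed to 16569 to 54661 in prdm12_VP16 caps, against 144746 to 154550 in prdm12_engR caps, with 5 of 9 called lower. Most of this sum was tubb2b, and the neuron markers elavl3 and dcx overlapped between the 2 groups. Of the neural progenitor markers 4 of 5 were called higher. The part of these cells in the members' differences was not tested.

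**Figure D4:**
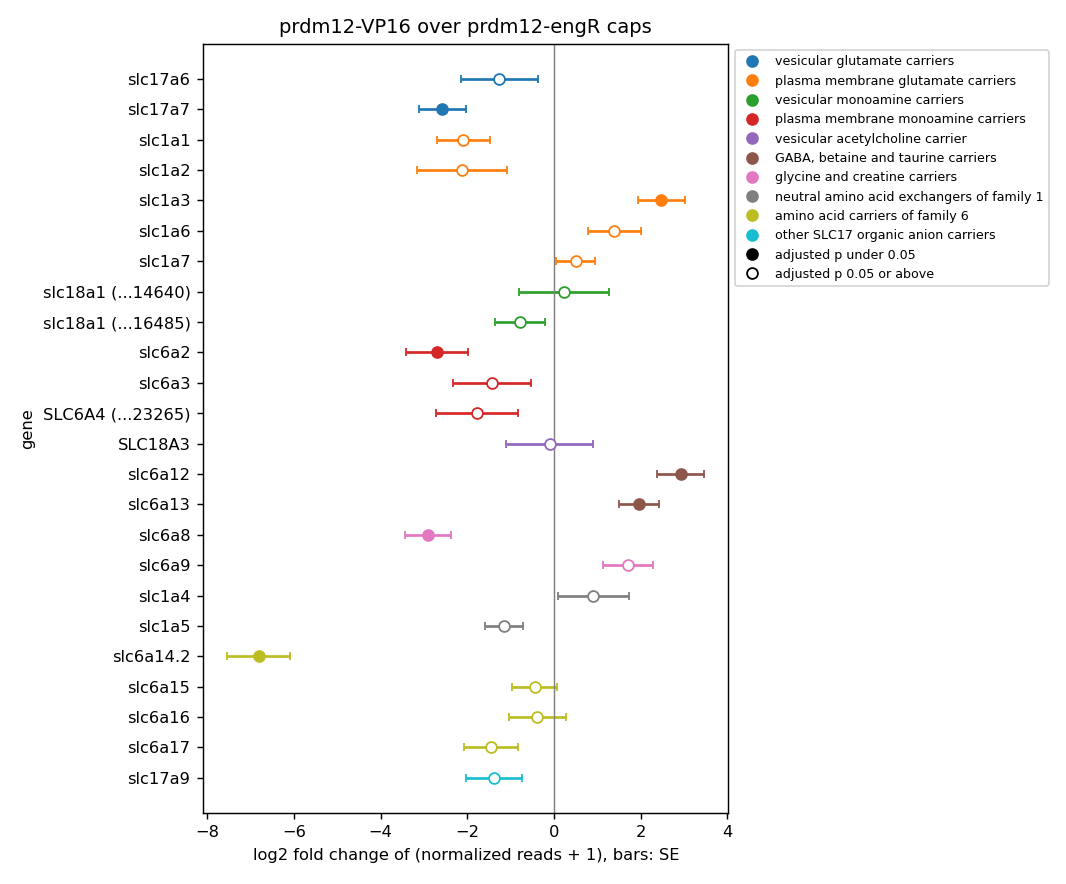
Log2 fold change of the 24 tested members in prdm12_VP16 caps over prdm12_engR caps, with bars of 1 standard error. Filled points passed an adjusted p of 0.05, and slc6a14.2 lies farthest to the left at -6.82.

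In prdm12_VP16 over prdm12 caps, 2 of 24 members passed, both lower, against 3.86% of all genes (3.11% lower). These were slc6a14.2 (-4.81 ± 0.73, adjusted p of 0.0147 from limma) and slc6a8 (-2.63 ± 0.53, adjusted p of 0.0365 from limma). Neither passed without prdm12 replicate 1 or without prdm12 replicate 2, where calls over all genes fell as well. A single member passed without prdm12_VP16 replicate 1, either prdm12_engR library or either wild-type library, and 4 passed without prdm12_VP16 replicate 2. With the block 9 passed, 2 higher and 7 lower, against 16.4% of all genes (4.83% higher and 11.6% lower). Those added were slc1a3 (1.80 ± 0.55, blocked adjusted p of 0.00642) and slc6a9 (1.60 ± 0.58, 0.0196) as higher, and slc17a7 (-2.32 ± 0.54, 0.0106), slc1a2 (-2.07 ± 1.04, 0.0147), slc6a2 (-3.02 ± 0.72, 0.0148), slc6a17 (-2.02 ± 0.62, 0.0185) and slc1a1 (-1.93 ± 0.61, 0.0247) as lower. The filter and the slc6a2 call drew on the same prdm12 values. Each SE here is that of the fit without the block. The neuron markers summed to 123215 to 154474 in prdm12 caps, against which the prdm12_VP16 range above was lower, with 3 of 9 called lower. Their part was not tested.

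In prdm12_engR over noggin and RA caps, 2 of 24 members passed, 1 in each direction, against 3.43% of all genes (2.41% higher and 1.02% lower). The amino acid carrier slc6a14.2 was higher (5.60 ± 0.73, adjusted p of 0.0111 from limma) and the betaine and GABA carrier slc6a12 was lower (-3.27 ± 0.54, adjusted p of 0.0204 from limma). Without either prdm12_engR library or either noggin library, log2 fold changes were 4.96 to 6.24 for slc6a14.2 and -3.63 to -2.92 for slc6a12. Neither call held in these fits, where most calls over all genes were lost as well. With the block 8 passed, 4 higher and 4 lower, against 10.9% of all genes (7.21% higher and 3.72% lower). Those added were slc6a2 (2.53 ± 0.72, blocked adjusted p of 0.0331), SLC6A4 (1.77 ± 0.96, 0.0373) and slc17a9 (1.87 ± 0.65, 0.043) as higher, and slc1a3 (-2.30 ± 0.55, 0.00373), slc6a13 (-1.83 ± 0.47, 0.0137) and slc6a9 (-1.67 ± 0.58, 0.0211) as lower. The filter and the slc6a2 call drew on the same prdm12_engR values. Each SE here is that of the fit without the block. In the same libraries the epidermal markers summed to 1595 to 2465 in prdm12_engR caps, against 630 to 643 in noggin and RA caps, with 2 of 6 called higher, while 3 of 4 multiciliated cell markers and 2 of 5 neural progenitor markers were called lower. Their part in these results was not tested.

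In prdm12 over noggin and RA caps, no member passed limma's test, with 0 of 24 against 0.162% of all genes. Under an unadjusted p of 0.05 were 5 members and 828 genes in all. The count was 0 with edgeR and 1 with DESeq2, which called slc6a14.2. Values of these 5 were 3.60 ± 0.73 for slc6a14.2 (adjusted p of 0.164), 2.86 ± 0.72 for slc6a2 (0.307), -3.24 ± 1.01 for SLC18A3 (0.488), -1.61 ± 0.55 for slc1a3 (0.567) and -1.57 ± 0.58 for slc6a9 (0.642). With the block slc6a14.2 (adjusted p of 0.0295) and slc1a3 (0.0453) passed, against 0.935% of all genes. Libraries did not overlap for 6 members higher and 6 lower, against 17.1% and 13.4% of all genes.

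In prdm12_VP16 over noggin and RA caps, 0 of 24 members passed limma's test, against 0% of all genes, with 3 members and 868 genes in all under an unadjusted p of 0.05. The count was 0 with edgeR, with DESeq2 and with the block, under which 0.340% of all genes passed. The 3 members were slc17a6 (-2.56 ± 0.89, adjusted p of 0.604), slc17a7 (-1.74 ± 0.54, 0.566) and slc6a8 (-1.67 ± 0.53, 0.570). Without prdm12_VP16 replicate 2, slc6a8 passed (-2.52, adjusted p of 0.0389). In prdm12_engR over prdm12 caps the count was likewise 0 of 24, also without prdm12_engR replicate 1, against 0% of all genes, with 3 members and 679 genes under an unadjusted p of 0.05, 0 with edgeR and 1 with DESeq2, which called slc6a12. The 3 members were slc6a12 (-2.20 ± 0.54, adjusted p of 0.456), slc6a13 (-1.83 ± 0.47, 0.456) and slc6a14.2 (2.00 ± 0.73, 0.744). In all, 7 of the 24 members passed in any of these 6 comparisons, against 12.5% of all genes, and 14 did with the block, against 31.3%.

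Many members differed between the replicates of a group in the same direction in all neuralized groups. Of the 24 tested members, 13 were higher in replicate 2 of all 4 neuralized groups (54.2%, against 31.8% of all genes) and 4 were lower in all (16.7%, against 26.5%). The median log2 difference of replicate 2 over replicate 1 was 0.98 in prdm12_VP16 caps, 0.49 in prdm12_engR caps, 0.81 in prdm12 caps, 0.60 in noggin and RA caps and 0.07 in wild-type caps. Over all genes the medians lay between -0.001 and 0.09. The neuron carriers slc1a1, slc17a6 and slc6a17 and the glial carriers slc1a2 and slc1a3 were among the 13, and slc1a5, slc6a13, slc17a9 and slc6a2 were the 4. The 13 also held the 2 lines of slc18a1, slc6a3 and SLC6A4, whose neuralized libraries had at most 17, 8, 19 and 31 reads. Their differences thus rest on few reads. Of the 4, slc6a2 had 2 and 2 reads in prdm12_VP16 caps. What separates replicate 1 from replicate 2 is not given in the labels, and it was not tested.

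**Figure D5:**
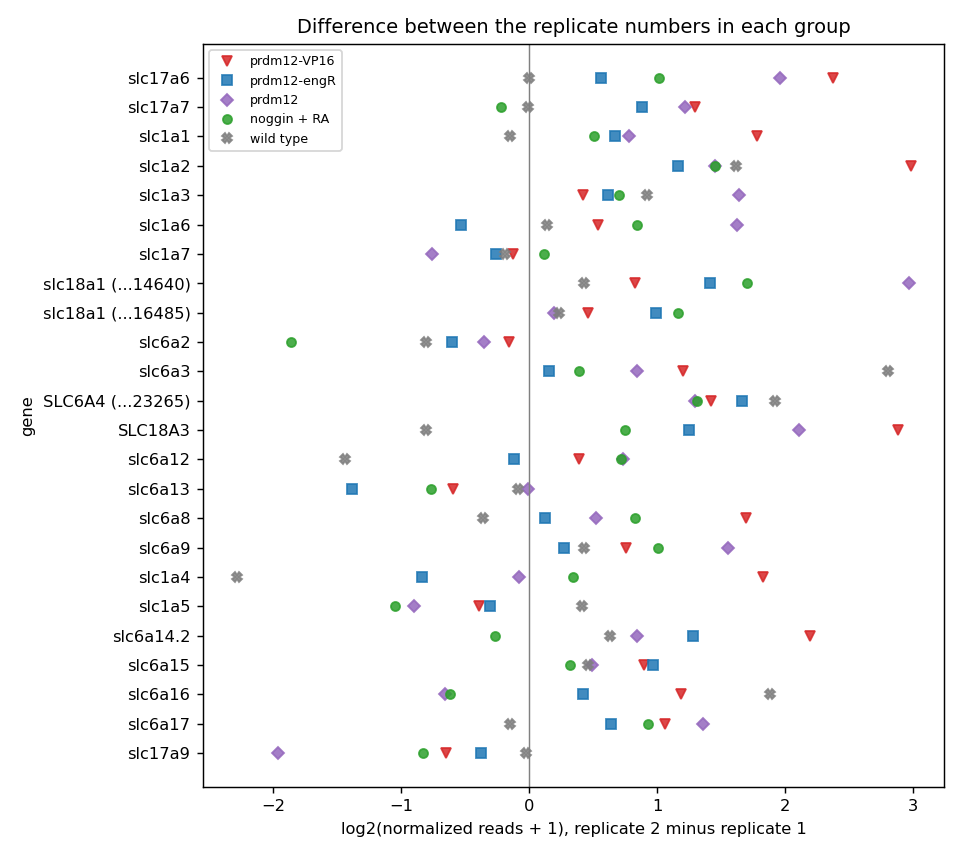
Log2 difference of replicate 2 minus replicate 1 for the 24 tested members (rows) in each group (symbols). Most symbols of the neuralized groups lie to the right of 0, with SLC18A3 and slc1a2 among the widest shifts.

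Genes that make or break down the transmitters were read beside the carriers. Of 18 listed enzymes 14 were tested, and in noggin and RA caps over wild-type caps 3 were higher and 4 lower in limma. In this comparison 22.3% of all genes were higher and 21.4% lower. The higher enzymes were abat of GABA breakdown (log2 fold change of 6.40, adjusted p of 6.89e-06), chat and maoa of monoamine breakdown. The call of maoa (adjusted p of 0.0314) was lost without noggin replicate 1 (0.158) or wild-type replicate 1 (0.177). The lower ones were ddc (-6.21, adjusted p of 0.000132), tph1 (-3.56, 0.000456), pnmt of adrenaline synthesis (-4.13, 0.00855, and 0.0506 without noggin replicate 1) and gls2 of glutamate synthesis. For gls2 normalized reads were 0 and 2.51 in noggin and RA caps, against 119 and 214 in wild-type caps (adjusted p of 0.0009 from limma). In this group of enzymes, ddc, tph1 and pnmt serve monoamine synthesis. Like slc18a1, the enzymes ddc, pnmt and gls2 reached the filter of 10 only through their wild-type values. The enzyme th, which opens dopamine synthesis, had at most 17.4 normalized reads and was not tested.

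Between constructs gad1 of GABA synthesis had the largest fold change of the enzymes tested. Normalized reads of gad1 were 2.3 and 34.4 in prdm12_VP16 caps, 2125 and 2204 in prdm12_engR caps, 4393 and 4028 in prdm12 caps, 21.9 and 156 in noggin and RA caps, and 18.5 and 36.1 in wild-type caps. The prdm12_engR and prdm12 libraries lay above all libraries of the other groups. In prdm12_VP16 over prdm12_engR caps 1 enzyme was higher and 5 were lower in limma, with gad1 at a log2 fold change of -7.65 (adjusted p of 0.00593, and 0.0546 without prdm12_engR replicate 2) and maob of monoamine breakdown at -5.46 (0.00447). The count of 6 was 1 without prdm12_engR replicate 2 and 2 without prdm12_VP16 replicate 1, and the calls of ache, abat, gad2 and glul were also lost without at least 1 library. In prdm12_VP16 over prdm12 caps 1 was higher and 3 were lower, with gad1 at -8.61 (adjusted p of 0.00942, and 0.0682 or 0.0582 without prdm12 replicate 1 or 2), and with the block 3 were higher and 7 lower. That count of 4 was 0 without prdm12 replicate 1, 1 without prdm12 replicate 2 or prdm12_VP16 replicate 1, and 2 without either prdm12_engR or either wild-type library. In prdm12_engR over noggin and RA caps 1 was higher, and 5 with the block, 2 without either prdm12_VP16 library and 0 without any library of the compared groups or of the wild type. In the other 3 comparisons none passed limma's test, with 5 enzymes under an unadjusted p of 0.05 in prdm12 over noggin and RA caps (0 called by edgeR, 3 by DESeq2 and 2 with the block), 3 in prdm12_VP16 over noggin and RA caps (0, 1 and 0) and 1 in prdm12_engR over prdm12 caps (0, 0 and 0). Of all genes, 3.42% were higher and 8.70% lower in prdm12_VP16 over prdm12_engR caps in limma. In prdm12_VP16 over prdm12 caps 0.758% were higher and 3.11% lower, and 4.83% and 11.6% with the block. The higher enzyme in that comparison was ddc, whose call was lost in each fit without 1 library. Among the lower was gad2, with 0 and 0 normalized reads in prdm12_VP16 caps against 20.3 and 63.6 in prdm12 caps. Its mean reached the filter mostly through prdm12 and prdm12_engR caps, so the filter and this call drew on the same prdm12 values. In prdm12_engR over noggin and RA caps 2.41% were higher, and 7.21% with the block. In the other 3 comparisons, in the order above, 0.162%, 0% and 0% passed, and 0.935%, 0.340% and 0.100% with the block. There 828, 868 and 679 of all 12937 genes were under an unadjusted p of 0.05. In the same order edgeR called 23, 0 and 0 of all genes, and DESeq2 called 250, 127 and 178.

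Of 9 related carriers outside the families 5 were tested. In noggin and RA caps over wild-type caps, 4 of these were higher and 0 lower in limma, against 22.3% and 21.4% of all genes. Of all 12937 genes, 6577 were under an unadjusted p of 0.05, with 5523 called by edgeR and 6242 by DESeq2. All 5 of these carriers were under that p, with 4 called by edgeR and 5 by DESeq2. The count was 1 without noggin replicate 2 and 2 without either wild-type library, and slc5a7 was the call that held without any 1 library. The vesicular carrier of GABA and glycine, slc32a1, had 17.3 and 52.03 normalized reads in prdm12_VP16 caps, 5417 and 5284 in prdm12_engR caps, 4660.5 and 3171 in prdm12 caps, 34.2 and 81.98 in noggin and RA caps, and 18.5 and 10.9 in wild-type caps. The prdm12_engR and prdm12 libraries of this gene, as of gad1, lay above those of the other groups. Its log2 fold change was -7.43 ± 0.58 in prdm12_VP16 over prdm12_engR caps (SE, adjusted p of 0.000701 from limma), which held without any 1 library. In prdm12 over noggin and RA caps it was 6.15 ± 0.58 (SE, adjusted p of 0.0197 from limma). That call was lost without prdm12 replicate 1 (0.200) or 2 (0.127), noggin replicate 1 (0.152) or 2 (0.0562), or prdm12_engR replicate 1 (0.0805) or 2 (0.0815). The GABA uptake carriers slc6a12 and slc6a13 had another order, with their lowest neuralized level in prdm12_engR caps.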

How the data were processed

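RNA was sequenced with a kit that is not strand-specific, per the labels' protocols. The submitters' processing notes name Bowtie2, Bowtie, edgeR and HOMER. For the step of each tool, the counter and the genome build, the sources used here give nothing. What the authors deposited was a normalized signal per gene under Ensembl identifiers of Xenopus tropicalis. Dividing each library by its smallest step gave whole read counts for 100% of the values, within 0.05 of a read. The table held 19926 lines, of which 5 special counters were left out, and 3210 genes were 0 in every library. Homeologs therefore share a line. By symbol, 27 of the 31 members matched an L or S gene in RefSeq of Xenopus laevis v10.1, and 16 matched both.

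Titles set the groups. Columns of the wild type carry a code and were assigned by elimination, as all other columns name a construct. For 12937 genes, those whose mean reached 10, log2(value + 1) entered limma 3.58.1 (R 4.3.3) with its intensity trend. A single model held group alone over the 10 libraries, with 5 residual and 3.171 prior degrees of freedom. Tests were two-sided, adjusted by Benjamini-Hochberg separately in 7 comparisons, at a threshold of 0.05. The pseudocount understates fold changes of low genes. An adjusted p is from this model unless the block, edgeR or DESeq2 is named. Intervals at 95% cover counting error only, and the floor of 3 reads covers that of the group without reads alone. The scripted test was run on simulated counts with the same spread for every gene and no replicate effect. That run cannot show how the test does on these libraries, whose replicate differences correlate between groups.

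Other settings were a pseudocount of 0.25 or 4, a mean filter of 50 or none, quantile or median ratio scaling, the 2 compared groups alone, the replicate number as a block, each library left out, and, on the recovered reads, edgeR 4.0.16 and DESeq2 1.42.0. The change between replicates 1 and 2 correlated across genes in each of the 10 pairs of groups (0.22 to 0.79). The numbers were taken to pair libraries on that ground, since no label says what they mark. Members and lists were chosen with earlier results of these data known. Members called in any comparison, or with the smallest p of their class, are given in every library, and only some of the listed enzymes and related carriers are named. Peak lists were not used here, and 1 untested member and 1 listed marker are not reported here.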

Additional observations from a re-analysis of the deposited data

How the results depend on the processing

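None of the 30 calls of a member turned direction under any alternative or without any 1 library. Between 24 (the 2 compared groups alone) and 30 of them held under an alternative (27 of the 27 still tested with a mean of 50), and between 21 and 28 without 1 library. In noggin and RA over wild-type caps the count of members called was 17 to 19 without 1 library. The replicate block gave 2 in prdm12 over noggin and RA caps, 8 in prdm12_engR over noggin and RA caps, 9 in prdm12_VP16 over prdm12 caps and 13 in prdm12_VP16 over prdm12_engR caps, and moved no other count by over 1.5 times. DESeq2 gave 1 in prdm12 over noggin and RA caps, 4 in prdm12_engR over noggin and RA caps, 5 in prdm12_VP16 over prdm12 caps and 1 in prdm12_engR over prdm12 caps. In the same order it called 250, 1169, 1310 and 178 of all 12937 genes. edgeR gave 1 in prdm12_VP16 over prdm12 caps, against 358 of all genes. The 2 groups alone gave 0 in prdm12_VP16 over prdm12 caps and 3 in prdm12_VP16 over prdm12_engR caps, against 0 and 640 of all genes. Leaving out 1 library gave 0 to 1 in prdm12_VP16 over noggin and RA, 0 to 3 in prdm12_engR over noggin and RA, 0 to 4 in prdm12_VP16 over prdm12 and 1 to 7 in prdm12_VP16 over prdm12_engR caps. A lone library is then assumed to vary like the other groups. In comparisons with calls, the count over all genes fell as well without a library of the compared groups, other than prdm12_VP16 replicate 2. Without that library it rose. There slc1a3 and slc6a2 still lost their calls in prdm12_VP16 over prdm12_engR caps (log2 fold changes of 2.27 and -2.62). The count over all genes does not show why the call of a single member was lost. Quantile scaling moved the median log2 fold change of all genes to 0.20 in prdm12_VP16 over prdm12_engR caps, to 0.14 in prdm12_VP16 over prdm12 caps and to -0.13 in prdm12_engR over noggin and RA caps. The cause of these changes was not tested. With no filter all 31 members were tested, which gave 21 calls in noggin and RA over wild-type caps, 3 in prdm12_engR over noggin and RA caps and 9 in prdm12_VP16 over prdm12_engR caps. In the same order 6044, 375 and 1478 of all 16711 genes were called. The calls among the 7 low members were slc6a6 (adjusted p of 0.0179) and slc6a19 (0.0205), both lower in noggin and RA than in wild-type caps, the second slc6a4 line (ENSXETG00000018650), higher in prdm12_engR than in noggin and RA caps (0.0391) and lower in prdm12_VP16 than in prdm12_engR caps (0.0173), and SLC6A14.1. These rest on few reads. The second slc6a4 line had 4 reads in prdm12_engR caps and 0 in both groups compared with them. With the floor of 3 reads in place of 0, its differences came to 1.68-fold and 1.30-fold. For slc6a6, 0 reads in noggin and RA caps against 4 in wild-type caps gave 1.94-fold in the same way. These values leave out the counting error of the 4 reads, so they are not lower bounds. Reads of slc6a19 were 1 and 4 in noggin and RA caps, against 8 and 7 in wild-type caps. SLC6A14.1 had 1 read in prdm12_VP16 caps against 31 in prdm12_engR caps, and the ratio was 0.033 (95% counting interval of 0.000809 to 0.198, adjusted p of 0.0207).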
